A study of Homo sapiens with 6 samples.

Results

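The genes described here encode the coats, GTPases, cargo receptors, tethers and fusion proteins that carry membrane and cargo between the endoplasmic reticulum (ER) and the Golgi, together with the secretory carrier membrane proteins (SCAMPs). The set held 45 of the 21743 genes named on the array. A probe was assigned to a gene where its RefSeq transcript belonged to it, which gave 60 probes, at least 1 for each of the 45 genes. Of these genes 41 were tested, and 40 of the 41 were well above background on all 6 arrays. *BET1* was well above background on 5 arrays. *COPG2*, *MIA2* and *LMAN1* were not well above background on any array and *SEC24B* on 2 of 6, so that these 4 genes were not tested.

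MDA-MB-231 cells, an established human triple-negative breast cancer line with a mesenchymal appearance, were transfected with a precursor of hsa-miR-205-5p, with one of hsa-miR-214-3p, or with a scrambled sequence as control. RNA was taken 72 h later and hybridised to Agilent SurePrint G3 human arrays, 2 arrays per group and 6 in all. Both precursors were compared with the control to find changes in gene expression, and here also with each other. The labels do not say whether replicates came from separate cultures, so the p-values measure the spread between these samples, which may be technical.

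Traffic between the ER and the Golgi runs in both directions. At ER exit sites the GTPase SAR1 recruits the COPII coat, an inner layer of SEC23 and SEC24 that selects cargo and an outer cage of SEC13 and SEC31, and the vesicles move forward. ARF GTPases recruit the COPI coat, which returns escaped ER proteins and recycling receptors from the Golgi. Golgi tethers catch the incoming vesicles and SNARE proteins fuse them. In secretory and migrating cells this route supplies the surface with receptors, adhesion molecules and matrix proteins.

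A mature microRNA pairs with messenger RNAs mainly through its seed, bases 2 to 8. The mature sequences of the introduced microRNAs, from RefSeq on assembly GRCh38.p14, are shown with the seed in capitals. The seed largely sets which messages each can pair with, and the seeds differ. The messages of the traffic genes were not searched for seed matches, so pairing with them was not tested. The hsa-miR-205-5p sequence lies at chr1:209432166-209432187 on the plus strand and the hsa-miR-214-3p sequence at chr1:172138816-172138837 on the minus strand.
hsa-miR-205-5p: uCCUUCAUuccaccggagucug
hsa-miR-214-3p: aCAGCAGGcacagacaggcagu

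*SCAMP3* was the only one of the 45 genes with a primer pair in the study's primer table, and its choice was made on these samples, so its change is not independent evidence of a direction for the list. The pair is printed to identify the amplified message.
SCAMP3 forward primer: gacaacccctttcaggaccc
SCAMP3 reverse primer: agggttgtagacgtcaagcg

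A short sequence that the choice of genes did not use was in a minority of the promoters of the traffic genes. TGACGTGG, the core of the unfolded protein response element, was searched on both strands of the 300 bases around each start site, 250 before it and 50 after it. It was found in 10 of the 38 traffic genes with a promoter entry (26.3%) and in 217 of 27305 promoters of all genes (0.795%). The 10 genes were *COPA*, *COPB1*, *COPB2*, *SEC23A*, *SEC24A*, *SEC16A*, *ARF1*, *GBF1*, *KDELR3* and *STX5*. The longer ER stress response element, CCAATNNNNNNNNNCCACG, which can overlap the core on the opposite strand, was in 0 of the 38 and in 22 of the 27305 (0.0806%). For 4 of the 10 genes, with roles in both coats and in ARF activation, the core is shown in capitals with 6 bases on each side, read on the strand that carries it. The stretches lie at chr3:139389830-139389849 (plus strand, *COPB2*), chr5:134648600-134648619 (plus strand, *SEC24A*), chr1:228082686-228082705 (plus strand, *ARF1*) and chr10:102245531-102245550 (minus strand, *GBF1*) of GRCh38.p14.
COPB2: gggccgTGACGTGGtgccgc
SEC24A: agtcggTGACGTGGcggcga
ARF1: aggcgcTGACGTGGccgccg
GBF1: gctcacTGACGTGGtaacta

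The 10 genes with the core did not move in a common direction. With hsa-miR-205-5p 1 of them rose (*SEC24A*), 2 fell (*SEC16A* and *ARF1*) and 7 were not called, with a median log2 difference of 0.30 from the control and a range from −1.52 to 1.12. Among the 25 tested genes whose promoters lacked the core 5 fell and 0 rose, with a median of −0.05, and over all genes 7.98% fell and 4.78% rose. A match is a description of the letters and not of a bound factor.

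All values below are log2 signals relative to the 75th percentile of the array, and a difference of 1 is 2-fold. A gene was called when its Benjamini-Hochberg adjusted p in limma was under 0.05 and its difference at least 2-fold. The samples are bulk RNA, so fewer cells expressing a gene and less RNA per cell cannot be told apart. Of 58717 spots, 35.4 to 42.2% were well above background on each array and 0 were saturated. The number of arrays limits the precision.

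The control arrays were further apart than the arrays of either precursor. Over the 41 traffic genes the median absolute difference between replicates was 0.44 in the control, 0.15 with hsa-miR-205-5p and 0.08 with hsa-miR-214-3p; over all 11974 genes tested it was 0.34, 0.17 and 0.11. Control replicates differed by more than 0.5 in 15 of the 41 genes and by more than 1 in *ARCN1*, *ARFIP2* and *GOLGA2*. Control replicate 1 lay nearer the hsa-miR-205-5p mean than control replicate 2 did in 30 of the 41 genes (73.2%), against 63.8% of all genes. Control replicate 2 lay nearer the hsa-miR-214-3p mean than control replicate 1 did in 25 of the 41 genes (61%), against 59.6% of all genes. The root mean square distance over the 41 genes was 0.55 between the control arrays. From hsa-miR-205-5p replicate 1 it was 0.71 to control replicate 1 and 1.05 to control replicate 2. From hsa-miR-214-3p replicate 1 it was 0.78 to control replicate 1 and 0.6 to control replicate 2. Values without a control array are therefore given beside the counts that change.

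Of the cell line markers, the 4 expected high were detected, and so were 2 of the 4 expected low. *VIM*, *CD44*, *CAV1* and *AXL*, expected high, were well above background on all 6 arrays and 0 of 4 were called in any comparison, where limma's unadjusted p was under 0.05 for 0 of 4 in each. Of the genes expected low, *ESR1* and *PGR* were not kept, while *GATA3* and *CDH1* were well above background on all 6 arrays. *CDH1*, which encodes the epithelial adhesion protein E-cadherin, read 0.87 and 0.64 with hsa-miR-205-5p, −1.30 and −1.47 with hsa-miR-214-3p, and −1.09 and −1.33 in the control. It was 3.90-fold higher with hsa-miR-205-5p than in the control (adjusted p = 0.00800), a change that stood beside those of the traffic genes and whose part in them was not tested.

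With hsa-miR-205-5p, 8 traffic genes fell and 2 rose against the control. They were *COPG1* of the COPI coat, *SEC16A* and *TFG* of the ER exit sites, *ARF1* and *ARFIP2* of the ARF group, the cargo receptor *TMED9*, the Golgi tether *GOLGA2* and *SCAMP2* among the falls, and *SEC24A* of the COPII coat and the retrieval receptor *KDELR2* among the rises. The called share was 19.5% lower and 4.88% higher, against 7.98% and 4.78% of all genes tested. In each called gene except *ARF1*, control replicate 1 lay nearer the hsa-miR-205-5p mean than control replicate 2 did, as in 63.8% of all genes. The median of the 41 differences was 0.20 and that of all genes 0.08. The falls lay in a minority of the genes, and 23 of the 41 differences were above 0. The share below 0 was 43.9%, against 45.3% of all genes. Relative to each array's median signal, 7 of the 41 signs turned. A further 6 genes had an adjusted p under 0.05 with less than a 2-fold difference, namely *SEC24C*, *SEC24D*, *SAR1B*, *GBF1*, *USO1* and *SCAMP4*; *GBF1*, an ARF activator, lay just inside the limit at 0.99.

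**Figure D1:**
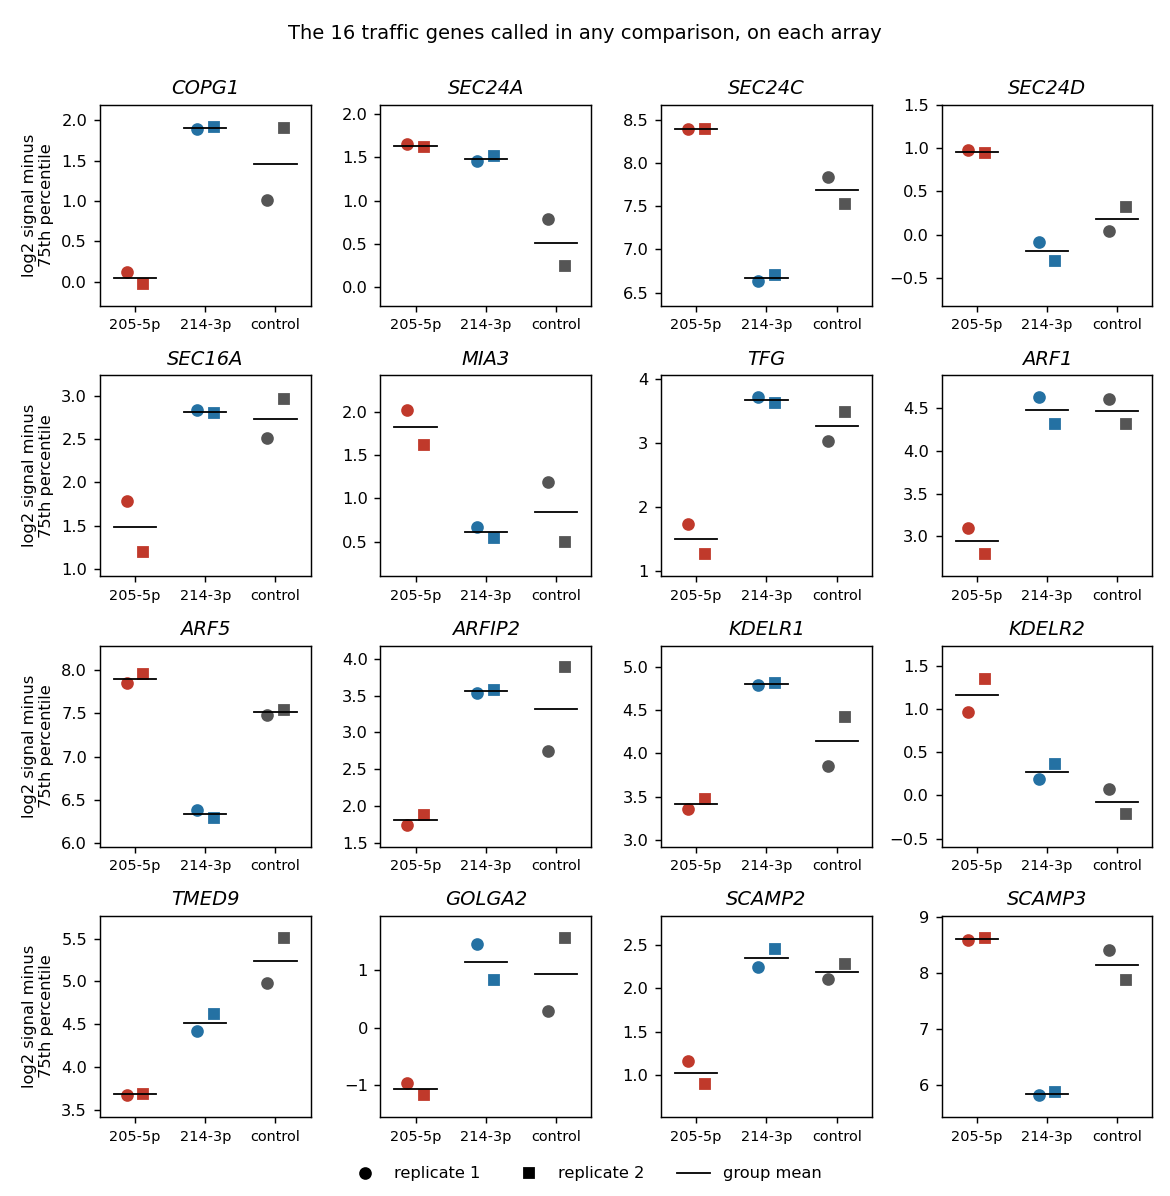
Log2 signal relative to the array's 75th percentile (vertical axes, each with its own range) for the 16 traffic genes called in any comparison. Each point is an array (circle, replicate 1; square, replicate 2) and each line a group mean. The control arrays of *COPG1*, *ARFIP2* and *GOLGA2* lie far apart.

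In the COPI coat, 1 of 7 tested subunits was called (14.3%, against 12.8% of all genes). *COPG1* encodes gamma-COP, which binds cargo and ARF in the coat's inner part. It read 0.12 and −0.03 with hsa-miR-205-5p, 1.89 and 1.92 with hsa-miR-214-3p, and 1.01 and 1.90 in the control, and it fell by 1.41 (SE 0.31, adjusted p = 0.0343), a call that 11 of 17 alternatives lost. Both hsa-miR-205-5p arrays were below both control arrays, although control replicate 1 was nearer to them. Over all genes the arrays of these groups did not overlap in 65.2%, and those of hsa-miR-214-3p and the control in 58.5%. The arrays of the precursors did not overlap in 80.3%. Separation of arrays, given for single genes below, was thus frequent and does not set a gene apart. The share of all genes with 1 group apart from both others was not counted. The other 6 subunits ranged from −0.40 (*COPE*) to 0.69 (*COPB1*) and had adjusted p from 0.0514 (*COPB2*) to 0.976 (*ARCN1*).

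In the COPII coat the cargo-binding subunit *SEC24A* rose, and the other 6 tested subunits were not called by their brightest probes. The called share was 14.3%, against 12.8% of all genes. Its signal was 1.65 and 1.62 with hsa-miR-205-5p, 1.46 and 1.51 with hsa-miR-214-3p, and 0.79 and 0.24 in the control, a difference of 1.12 (SE 0.22, adjusted p = 0.0264). Every array of either precursor was above both control arrays. In the coat 6 of 7 differences were above 0 under this scaling and the median was 0.59. Relative to each array's median signal, 4 of 7 were above 0. These counts rest on the brightest probe of each gene. The other kept probes of *SEC13* and *SEC23B* were called lower, at −1.30 (adjusted p = 0.0151) and −1.22 (adjusted p = 0.0430).

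At the ER exit sites 2 of 5 tested genes fell (40%, against 7.98% of all genes). *TFG*, which organises the space between exit sites and the next compartment, read 1.73 and 1.26 with hsa-miR-205-5p, 3.72 and 3.62 with hsa-miR-214-3p, and 3.03 and 3.49 in the control. It fell by 1.76 (SE 0.25, adjusted p = 0.0131), or 3.40-fold. *SEC16A*, the scaffold of exit sites, read 1.78 and 1.19 with hsa-miR-205-5p, 2.83 and 2.80 with hsa-miR-214-3p, and 2.51 and 2.96 in the control, and fell by 1.25 (SE 0.27, adjusted p = 0.0321). For both genes the hsa-miR-205-5p arrays were the lowest of the 6, a pattern whose share over all genes was not counted. The GTPase *SAR1B* was at 0.80 (adjusted p = 0.0490) and *MIA3*, a receptor for bulky cargo such as collagen, at 0.98 (adjusted p = 0.0665).

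In the ARF group 2 of 6 genes fell (33.3%, against 7.98% of all genes). *ARF1*, the main GTPase that recruits COPI, read 3.10 and 2.79 with hsa-miR-205-5p, 4.63 and 4.32 with hsa-miR-214-3p, and 4.61 and 4.32 in the control. The fall of 1.52 (SE 0.22, adjusted p = 0.0133) separated the hsa-miR-205-5p arrays from the other 4, which spanned 4.32 to 4.63. *ARFIP2*, which encodes the membrane-bending arfaptin-2, read 1.75 and 1.88 with hsa-miR-205-5p, 3.53 and 3.58 with hsa-miR-214-3p, and 2.75 and 3.88 in the control, and fell by 1.50 (SE 0.37, adjusted p = 0.0452). This call was lost in 12 of 17 alternatives, among them quantile normalization and the authors' table. In these 2 the difference was about as large, at −1.47 (adjusted p = 0.0551) and −1.46 (adjusted p = 0.0528). The other 4 members, *ARF4*, *ARF5*, *ARFGAP1* and *GBF1*, ranged from 0.30 to 0.99.

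Among 6 tested cargo receptors 1 fell and 1 rose (16.7% each, against 7.98% and 4.78% of all genes). *TMED9*, of the p24 family that sorts cargo into both kinds of vesicle, read 3.67 and 3.69 with hsa-miR-205-5p, 4.42 and 4.62 with hsa-miR-214-3p, and 4.98 and 5.51 in the control; it fell by 1.56 (SE 0.23, adjusted p = 0.0135). *KDELR2*, which retrieves ER proteins that end in the KDEL signal, read 0.97 and 1.35 with hsa-miR-205-5p, 0.19 and 0.36 with hsa-miR-214-3p, and 0.07 and −0.21 in the control. It rose by 1.24 (SE 0.21, adjusted p = 0.0188), with both arrays above the other 4. *TMED10* and *TMED2*, other p24 proteins, were at −0.97 and 0.43 and were not called.

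Of 6 tethers and SNAREs 1 fell (16.7%, against 7.98% of all genes). *GOLGA2* encodes GM130, a cis-Golgi matrix protein that binds the tether p115, the product of *USO1*. It read −0.96 and −1.17 with hsa-miR-205-5p, 1.44 and 0.83 with hsa-miR-214-3p, and 0.29 and 1.55 in the control. The fall of 1.98 (SE 0.45, adjusted p = 0.0378) was 3.94-fold, with the widest control spread of the called genes. With normexp it was −0.79 (adjusted p = 0.130) and was not called. *USO1* itself was at 0.59 (adjusted p = 0.0462), below the 2-fold limit, and the SNAREs *GOSR1*, *BET1*, *SEC22B* and *STX5* ranged from −0.78 to 0.20 without a call.

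Of the 4 SCAMPs, *SCAMP2* fell (25%, against 7.98% of all genes). These membrane proteins cycle between the trans-Golgi, endosomes and the cell surface. *SCAMP2* read 1.16 and 0.89 with hsa-miR-205-5p, 2.25 and 2.46 with hsa-miR-214-3p, and 2.11 and 2.28 in the control, and fell by 1.17 (SE 0.19, adjusted p = 0.0165). The hsa-miR-205-5p arrays lay below the other 4.

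The calls against the control depended on single arrays. Without hsa-miR-205-5p replicate 2, limma called 0 traffic genes and 0 of all genes in this comparison; at an unadjusted p under 0.05 and 2-fold, 7 traffic genes were lower and 4 higher. Without hsa-miR-205-5p replicate 1, *TFG* and *ARF1* stayed called lower and *KDELR2* higher. Without control replicate 1 there were 9 genes lower, among them all 8, and 4 higher; without control replicate 2 there were 4 lower (*TFG*, *ARF1*, *TMED9* and *SCAMP2*) and 1 higher (*KDELR2*). Leaving out either hsa-miR-214-3p array, which only adds to the estimate of the spread, left 3 lower and 0 higher. The calls of *SEC24A*, *SEC16A* and *GOLGA2* were each lost in 11 of 17 alternatives, and those of *TFG* and *ARF1* in 3. *GOLGA2* was at −2.61 without control replicate 1 and −1.35 without control replicate 2, *ARFIP2* at −2.07 and −0.94, and *COPG1* at −1.86 and −0.96. Calls over all genes also varied widely with the array left out. The leave-one-out counts therefore do not set the traffic genes apart.

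Scaling changed the balance of directions. Relative to each array's median signal, the median difference of all genes with hsa-miR-205-5p moved from 0.08 to −0.31 and that of the traffic genes from 0.20 to −0.19, a constant per array that leaves the distance between these medians as it was. The share of calls that were lower moved from 62.6% to 89.8% over all genes. In the traffic genes 11 were then called lower, among them the 8, and 0 higher, with 0 higher also at an unadjusted p under 0.05 and 2-fold; *SEC24A* was at 0.73 and *KDELR2* at 0.85. With normexp background correction the medians were −0.02 for all genes and 0.02 for the traffic genes. Under normexp 5 of the 10 calls were lost: *COPG1* at −0.87 (adjusted p = 0.0505), *GOLGA2* at −0.79, *SCAMP2* at −0.92, *SEC24A* at 0.69 and *KDELR2* at 0.65.

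**Figure D2:**
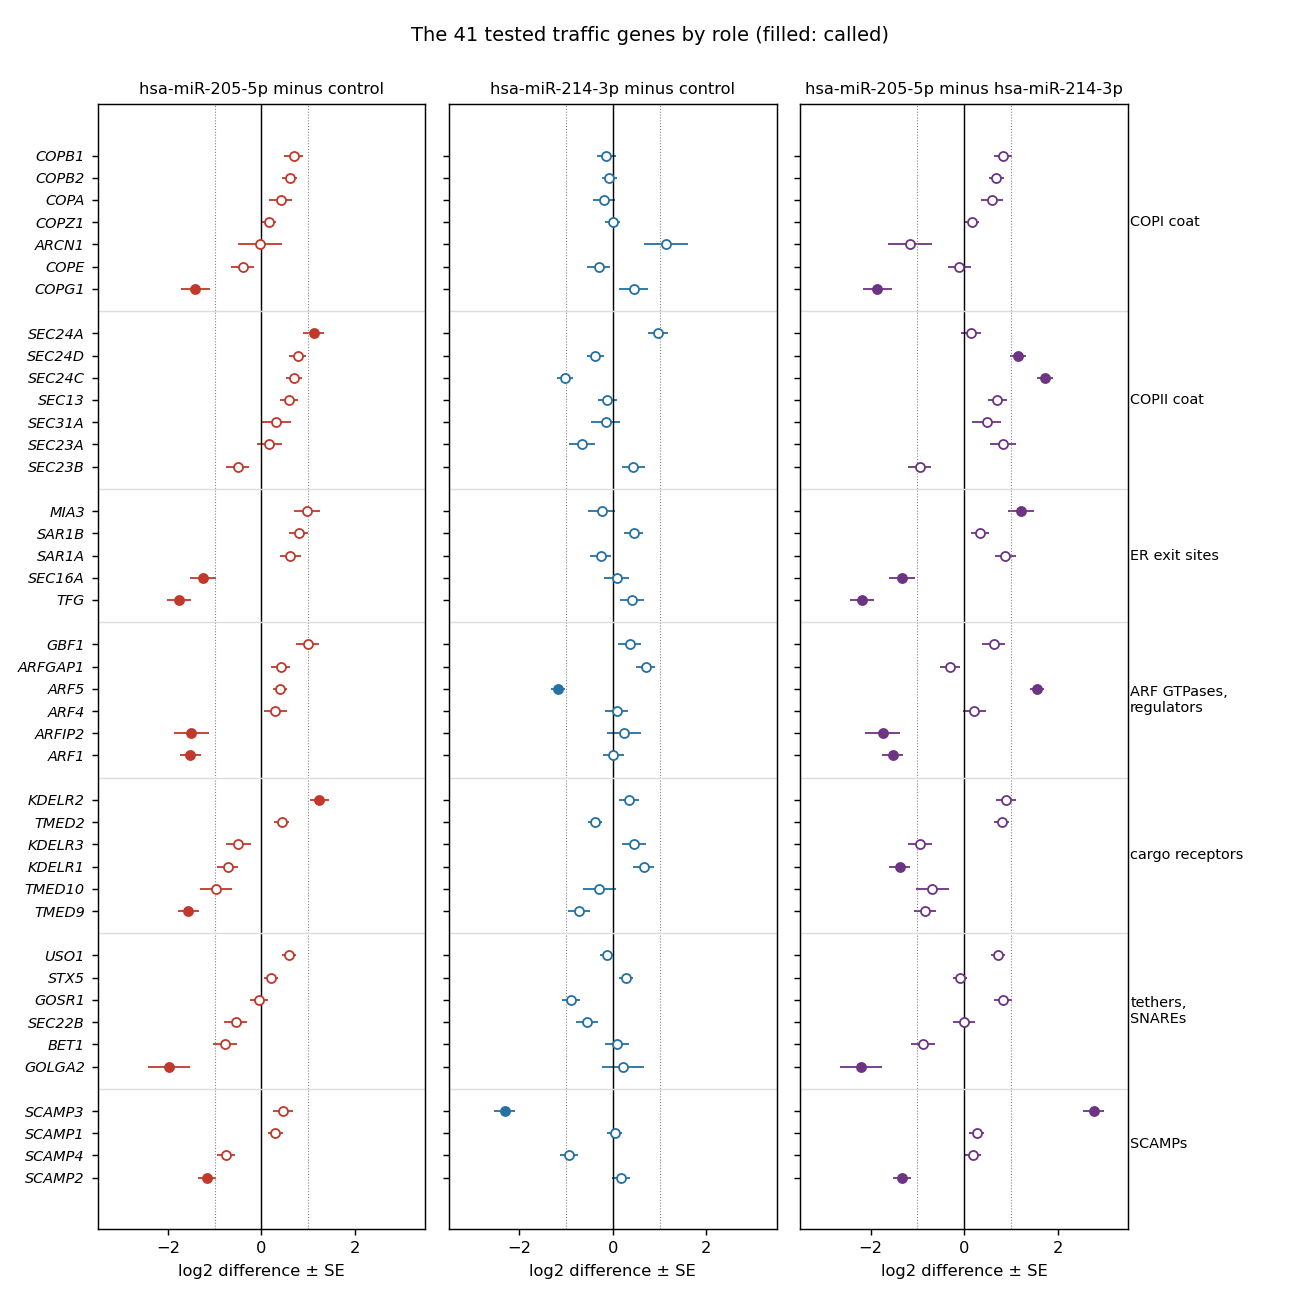
Log2 difference with its standard error (horizontal axes) for the 41 tested traffic genes, grouped by role, for each precursor minus the control and for hsa-miR-205-5p against hsa-miR-214-3p; filled points were called, open points were not, and dotted lines mark 2-fold. The calls with hsa-miR-205-5p fall in all 7 roles and those with hsa-miR-214-3p are *ARF5* and *SCAMP3*.

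With hsa-miR-214-3p, 2 traffic genes fell against the control and 0 rose. The called share was 4.88% lower, against 2.03% of all genes tested, and 0 higher, against 1.09%. The limma unadjusted p was under 0.05 for 9 of the 41 genes (22.0%, against 24.2% of all genes). Of the 9, 3 were at least 2-fold lower and 0 at least 2-fold higher. The median of the 41 differences was 0.00 and that of all genes −0.01, and 20 of the 41 were below 0 (48.8%, against 51% of all genes).

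*SCAMP3* had the largest difference of any traffic gene. It read 5.81 and 5.86 with hsa-miR-214-3p, 8.41 and 7.88 in the control, and 8.59 and 8.63 with hsa-miR-205-5p. The fall of 2.31 (SE 0.22, adjusted p = 0.0258) was 4.96-fold, and the 2 hsa-miR-214-3p arrays were far below the other 4. SCAMP3 is known for a part in endosomal sorting of growth factor receptors.

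*ARF5*, a GTPase of the Golgi and the intermediate compartment, read 6.38 and 6.29 with hsa-miR-214-3p, 7.48 and 7.54 in the control, and 7.85 and 7.95 with hsa-miR-205-5p. It fell by 1.17 (SE 0.15, adjusted p = 0.0360), and its replicates were close in each group. *SEC24C*, a COPII cargo-binding subunit, lay just outside the call: it read 6.63 and 6.71 with hsa-miR-214-3p, 7.84 and 7.53 in the control, and 8.39 and 8.39 with hsa-miR-205-5p, a difference of −1.02 (SE 0.17, adjusted p = 0.0512). It was called lower with normexp (−1.15, adjusted p = 0.0145), quantile normalization (−1.01, adjusted p = 0.0393), median scaling (−1.18, adjusted p = 0.0477) and the authors' table (−1.01, adjusted p = 0.0389), so that the count was 3 lower under each of these.

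The largest positive differences with hsa-miR-214-3p were not called. *ARCN1*, which encodes delta-COP, read 4.09 and 4.09 with hsa-miR-214-3p, 2.22 and 3.69 in the control, and 2.89 and 2.98 with hsa-miR-205-5p, a difference of 1.14 (SE 0.47, adjusted p = 0.235), while its other kept probe was at −0.06. It was 0.40 without control replicate 1 and 1.87 (adjusted p = 0.0233) without control replicate 2. *SEC24A*, whose values are given above, was at 0.97 (SE 0.22, adjusted p = 0.0840), beside 1.12 with hsa-miR-205-5p, and these differences share their control arrays.

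Calls with hsa-miR-214-3p also depended on single arrays. Leaving out any array other than control replicate 2 left limma with 0 traffic genes and 0 of all genes called, with 2 to 4 traffic genes lower and 0 or 1 higher at an unadjusted p under 0.05 and 2-fold. Without control replicate 2 there were 4 lower, among them *ARF5* and *SCAMP3*, and 1 higher, *ARCN1*. *SCAMP3* ranged from −2.58 to −2.04 over the settings tried and *ARF5* from −1.34 to −1.13. Relative to each array's median signal, the median of all genes moved from −0.01 to −0.18 and the share of lower among called genes from 65.0% to 86.3%.

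Between the precursors, 13 traffic genes were called. The 8 that were lower with hsa-miR-205-5p than with hsa-miR-214-3p were *COPG1*, *SEC16A*, *TFG*, *ARF1*, *ARFIP2*, *KDELR1*, *GOLGA2* and *SCAMP2*, and the 5 that were higher were *SEC24C*, *SEC24D*, *MIA3* (by its brightest probe), *ARF5* and *SCAMP3*. The called share was 19.5% lower and 12.2% higher, against 11.3% and 9.18% of all genes tested. The median difference was 0.18, and 0.12 over all genes. Relative to each array's median signal, 12 were lower and 3 higher, and the share of lower among called genes moved from 55.2% to 73.8%. The control cancels from the difference, so this comparison is also the test of whether the effects of the precursors differ. Its standard errors still rest on the spread within all 3 groups, the control arrays included. For *ARCN1*, whose control arrays differed by more than 1, the standard error was 0.47 here as it was against the control.

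Of the 10 genes called with hsa-miR-205-5p against the control, 7 were also called between the precursors, and of the 2 called with hsa-miR-214-3p both were. The comparisons share arrays, and over all genes the corresponding shares were 70.2% and 60.4%. *GOLGA2* was 4.59-fold lower with hsa-miR-205-5p than with hsa-miR-214-3p (log2 difference −2.20, SE 0.45, adjusted p = 0.0203) and *TFG* 4.52-fold lower (−2.18, SE 0.25, adjusted p = 0.00521). *SCAMP3* was 6.83-fold higher (2.77, SE 0.22, adjusted p = 0.00383), and all 17 other settings and omissions kept this call. *ARF5* was 2.96-fold higher (1.56, adjusted p = 0.00415). For each of these genes the arrays of the precursors did not overlap, as in 80.3% of all genes. The hsa-miR-214-3p arrays of *GOLGA2*, at 1.44 and 0.83, lay further apart than the median of 0.08. With normexp background correction the *GOLGA2* difference was −0.86 (adjusted p = 0.0875) and was not called.

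*SEC24A*, *KDELR2* and *TMED9* were called with hsa-miR-205-5p and not between the precursors. The differences between precursors were 0.15 for *SEC24A* (adjusted p = 0.625), 0.89 for *KDELR2* (adjusted p = 0.0294, under 2-fold) and −0.84 for *TMED9* (adjusted p = 0.0408, under 2-fold). For *TMED9* the hsa-miR-214-3p arrays lay between those of hsa-miR-205-5p and the control.

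The genes *SEC24C*, *SEC24D*, *MIA3* and *KDELR1* were called between the precursors and in neither comparison with the control under the main scaling. *SEC24C* was 3.30-fold higher with hsa-miR-205-5p than with hsa-miR-214-3p (1.72, SE 0.17, adjusted p = 0.00431). Its differences from the control were 0.70 and −1.02, so that the control lay between the precursors. *SEC24D*, another COPII cargo-binding subunit, read 0.98 and 0.94 with hsa-miR-205-5p, −0.08 and −0.30 with hsa-miR-214-3p, and 0.04 and 0.32 in the control, a difference between precursors of 1.15 (SE 0.18, adjusted p = 0.0102). It was 0.51 with normexp and 0.93 with median scaling, and was called under neither.

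*MIA3* read 2.02 and 1.62 with hsa-miR-205-5p, 0.67 and 0.54 with hsa-miR-214-3p, and 1.19 and 0.50 in the control, a difference between precursors of 1.22 (SE 0.28, adjusted p = 0.0279). Another of its probes was called in the opposite direction, at −2.10 (adjusted p = 0.00451), and the mean over its probes was 0.09. *KDELR1* read 3.36 and 3.48 with hsa-miR-205-5p, 4.79 and 4.81 with hsa-miR-214-3p, and 3.86 and 4.42 in the control, a difference of −1.38 (SE 0.22, adjusted p = 0.0111). The control arrays of *KDELR1* lay between the precursors, and those of *MIA3* overlapped hsa-miR-214-3p. Without hsa-miR-214-3p replicate 2 the comparison called 0 traffic genes lower (9 at an unadjusted p under 0.05 and 2-fold) and 1 higher, *SCAMP3*; without hsa-miR-214-3p replicate 1 it called 1 lower, *TFG*, and 3 higher; without hsa-miR-205-5p replicate 2 it called 3 lower and 4 higher.

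**Figure D3:**
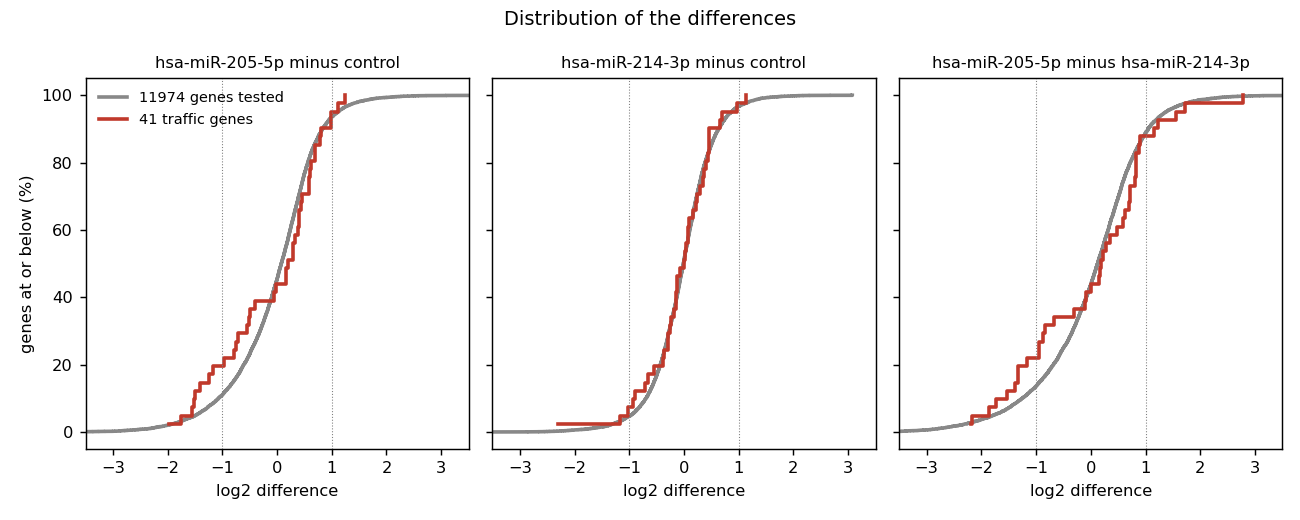
Cumulative share of genes (vertical axes, percent) at or below each log2 difference (horizontal axes) for the 41 tested traffic genes and all 11974 genes tested, for each precursor minus the control and for hsa-miR-205-5p against hsa-miR-214-3p; dotted lines mark 2-fold. The medians of the traffic genes are 0.20, 0.00 and 0.18, and those of all genes 0.08, −0.01 and 0.12.

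Paralogs of the same family are given side by side, and most of their differences were not called. In the SEC24 family, *SEC24A* was above the control with both precursors, at 1.12 and 0.97, while *SEC24C* was at 0.70 and −1.02 and *SEC24D* at 0.78 and −0.37; *SEC24B* was not tested. With hsa-miR-205-5p all 3 were above the control under every scaling tried; of them *SEC24A* was called, a call lost in 11 of 17 alternatives, normexp and median scaling among them. The gamma-COP gene *COPG1* could not be set beside *COPG2*, which was not well above background.

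The SEC23 paralogs form the GTPase-activating layer of COPII. *SEC23A* read 2.62 and 3.30 with hsa-miR-205-5p, 2.05 and 2.20 with hsa-miR-214-3p, and 2.94 and 2.64 in the control. *SEC23B* read 2.34 and 2.02 with hsa-miR-205-5p, 3.18 and 3.08 with hsa-miR-214-3p, and 2.41 and 2.96 in the control. Between the precursors *SEC23A* was at 0.83 (adjusted p = 0.0672) and *SEC23B* at −0.95 (adjusted p = 0.0361), neither of them called; under median scaling *SEC23B*, at −1.17, was called. Against the control with hsa-miR-205-5p, *SEC23A* was at 0.17 and turned to −0.03 with normexp and −0.22 with median scaling.

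The SAR1 GTPases were above the control with hsa-miR-205-5p by their brightest probes, without a call. *SAR1A* read 7.92 and 7.48 with hsa-miR-205-5p, 6.82 and 6.82 with hsa-miR-214-3p, and 7.22 and 6.94 in the control, a difference of 0.62 (adjusted p = 0.101), while its other kept probe was at −0.03. *SAR1B* read 4.05 and 4.31 with hsa-miR-205-5p, 3.80 and 3.87 with hsa-miR-214-3p, and 3.20 and 3.58 in the control, a difference of 0.80 (adjusted p = 0.0490).

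Among the KDEL receptors, *KDELR2* rose with hsa-miR-205-5p while *KDELR1* and *KDELR3* were at −0.72 and −0.49. *KDELR3* read 1.23 and 1.45 with hsa-miR-205-5p, 2.54 and 2.03 with hsa-miR-214-3p, and 1.60 and 2.06 in the control. Between the precursors *KDELR2* was at 0.89 and *KDELR1* and *KDELR3* at −1.38 and −0.95, all with an adjusted p under 0.05, and *KDELR1* alone was at least 2-fold. These signs held under every scaling tried.

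The SCAMPs split between the precursors, *SCAMP2* falling with hsa-miR-205-5p and *SCAMP3* with hsa-miR-214-3p. *SCAMP1* read 0.55 and 0.69 with hsa-miR-205-5p, 0.44 and 0.27 with hsa-miR-214-3p, and 0.37 and 0.27 in the control, and its small differences from the control changed sign with the scaling. *SCAMP4* read 0.67 and 0.83 with hsa-miR-205-5p, 0.47 and 0.67 with hsa-miR-214-3p, and 1.67 and 1.34 in the control. Its differences of −0.75 and −0.93 were not called (adjusted p = 0.0494, under 2-fold, and 0.0710).

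**Figure D4:**
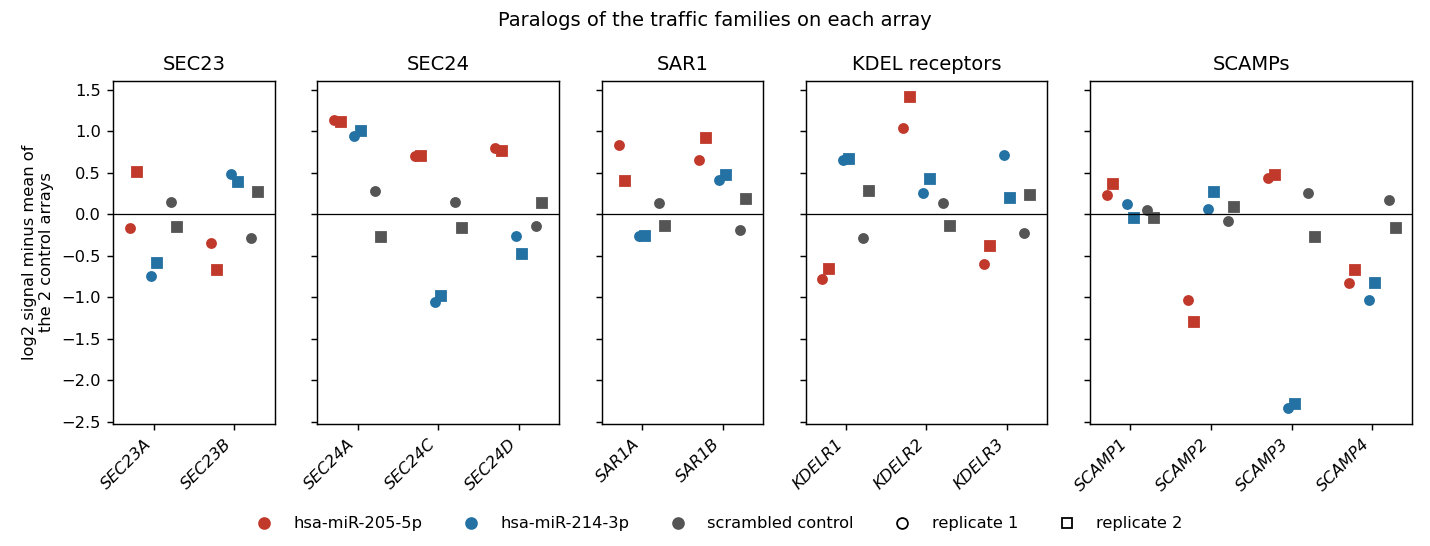
Log2 signal on each array minus the mean of the 2 control arrays (vertical axis) for the tested paralogs of 5 families (horizontal axis); colours mark the groups, circles replicate 1 and squares replicate 2. *SCAMP3* stands 2.31 below the control with hsa-miR-214-3p, and *SEC24C* lies above the control with hsa-miR-205-5p and below it with hsa-miR-214-3p.

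Several genes were measured by more than 1 kept probe, and these probes did not always agree in sign. Of 8 such genes, 5 had kept probes of opposite sign with hsa-miR-205-5p, 5 with hsa-miR-214-3p and 6 between the precursors. *BET1* entered the last 2 counts by a probe that was well above background on 0 of 2 hsa-miR-214-3p arrays. The sign of that probe was therefore not measured there. *SEC13*, shared between the COPII cage and the nuclear pore, was at 0.59 with hsa-miR-205-5p by its brightest probe (adjusted p = 0.0946). Its other probe, assigned to another transcript of the gene, read 2.87 and 2.95 with hsa-miR-205-5p and 4.01 and 4.42 in the control, and fell by 1.30 (SE 0.20, adjusted p = 0.0151). For that probe the difference between the precursors was −1.78 (adjusted p = 0.00515), against 0.71 for the brightest.

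The brightest of 3 kept *MIA3* probes was at 0.98 with hsa-miR-205-5p and another at 0.89, while the remaining probe fell by 1.39 (SE 0.22, adjusted p = 0.0158). Between the precursors the 3 probes were at 1.22, 1.15 and −2.10, each called, so the direction for *MIA3* rests on the choice of probe; the mean over its probes was 0.09 (adjusted p = 0.674). For *SEC23B* both probes were below the control with hsa-miR-205-5p, at −0.51 and −1.22, and the second was called (adjusted p = 0.0430). Between the precursors that probe was at −2.00 (adjusted p = 0.00884, called), and the brightest at −0.95. The probes of *SEC16A* were at −1.25 and −0.39, and by the mean of its probes the gene was not called. The genes *ARCN1*, *SAR1A*, *TMED10* and *BET1* had 2 kept probes each and no call for any of them. Between the precursors the brightest and the other probe were at −1.16 and 0.66 for *ARCN1* and 0.88 and −0.36 for *SAR1A*. For *TMED10* they were at −0.68 and 0.23. The brightest *BET1* probe was at −0.88. Its other probe was not detected with hsa-miR-214-3p, so its difference is not given. Probe sequences were not used, so cross-hybridisation between paralogs was not tested.

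**Figure D5:**
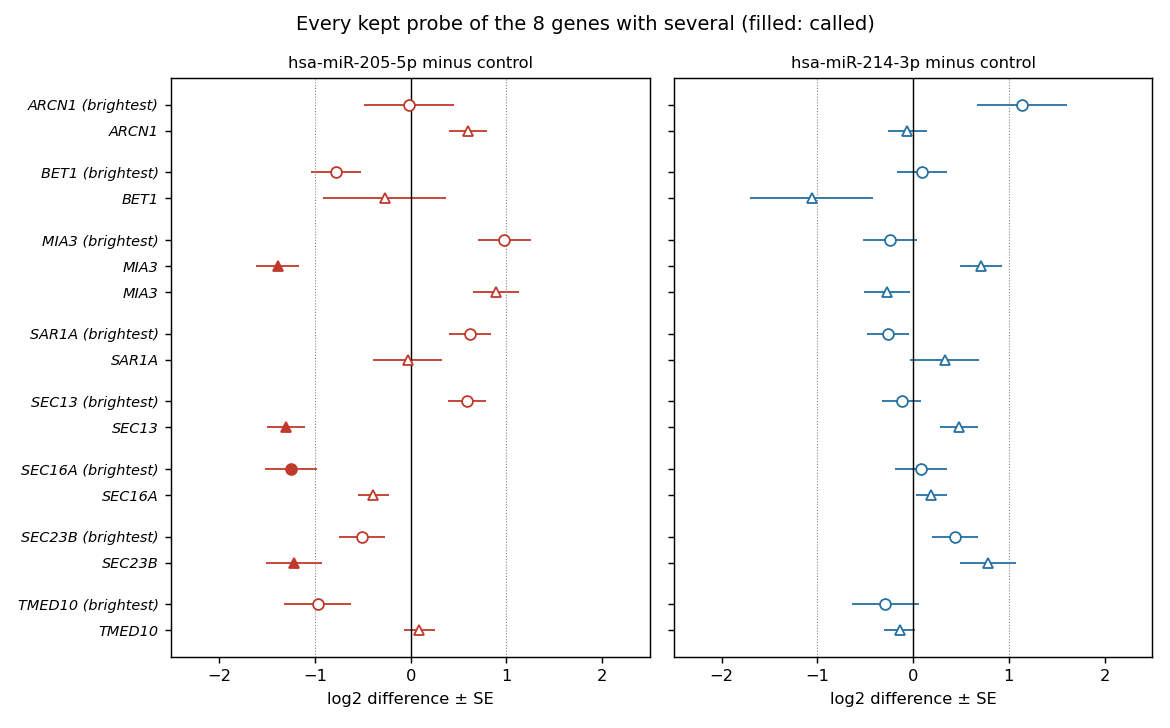
Log2 difference from the control with its standard error (horizontal axes) for every kept probe of the 8 traffic genes with more than 1, for each precursor; circles mark the brightest probe, triangles the others, and filled points were called. With hsa-miR-205-5p a *SEC13* probe lies at −1.30 and the brightest at 0.59. A *MIA3* probe lies at −1.39 with the others at 0.98 and 0.89. The *BET1* probe marked by a triangle was well above background on 0 of 2 hsa-miR-214-3p arrays.

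A wider list of 83 other early secretory genes had 75 members tested. With hsa-miR-205-5p 11 of them were called lower and 4 higher, with hsa-miR-214-3p 3 fell and 1 rose, and between the precursors 12 were lower and 6 higher with hsa-miR-205-5p. The median differences were −0.01, 0.05 and 0.19, beside 0.08, −0.01 and 0.12 over all genes. The shares called, 20.0%, 5.33% and 24.0%, stood beside 12.8%, 3.12% and 20.5% over all genes.

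Among the 21 tested coat partners and ER exit genes, 3 fell and 4 rose with hsa-miR-205-5p (33.3% called, against 12.8% of all genes). The recycling cargo receptor *ERGIC3* fell by 2.84 (adjusted p = 0.0121), the Golgi membrane protein *YIPF5* by 1.94 and the SAR1 activator *PREB* by 1.39. The largest rises were those of *BCAP29*, an ER membrane protein, at 1.84, *SEC31B*, a paralog of the COPII cage protein, at 1.37, and the cornichon cargo receptor *CNIH4* at 1.28. With hsa-miR-214-3p *BCAP29* rose by 1.64 (adjusted p = 0.0382) and the p24 protein *TMED5* fell by 1.25 (adjusted p = 0.0339).

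Of 31 tested tethers in this list 4 were called lower and 0 higher with hsa-miR-205-5p, or 12.9% against 12.8% of all genes called in either direction. The golgin gene *GOLGA1* was too dim to be detected after the hsa-miR-205-5p precursor, and there it was at least 3.27-fold lower than in the control. This bound compares the control mean with the lowest detectable signal, or with the measured one where that was higher; the call of this gene, 1 of the 4, used the undetected signal, and the bound itself was not tested. *TRAPPC6A*, of a tethering complex, fell by 1.86 with hsa-miR-205-5p, where 1 of 2 arrays was well above background, and by 1.64 with hsa-miR-214-3p (adjusted p = 0.0408). *COG4*, of the conserved oligomeric Golgi complex, fell by 1.46 (adjusted p = 0.00925).

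Among 14 tested fusion genes 4 fell and 0 rose with hsa-miR-205-5p (28.6% called, against 12.8% of all genes). The SNAREs *BNIP1* and *STX18*, which act in the return of COPI vesicles to the ER, fell by 2.15 and 1.73, and the Golgi SNARE *BET1L* by 1.29 (adjusted p = 0.0150). *STX6*, a trans-Golgi SNARE, fell by 1.81 with hsa-miR-214-3p (adjusted p = 0.0355), reading −0.55 and −0.24 against 1.24 and 1.58 in the control. In the ARF cycle list limma called 0 of 9 genes in any comparison, with an unadjusted p under 0.05 for 4 with hsa-miR-205-5p, 1 with hsa-miR-214-3p and 2 between the precursors (44.4%, 11.1% and 22.2%, against 39.5%, 24.2% and 48.2% of all genes). Between the precursors the lowest and highest differences among the 75 genes were −3.38 for *ERGIC3* (adjusted p = 0.00520) and 2.35 for *STX6* (adjusted p = 0.00416).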

How the data were processed

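The authors scanned 6 Agilent arrays, on 1 slide and in 1 scan, and deposited Feature Extraction output, software version 11.0 per the file headers, whose processed, median and background signals are intensity values on a linear scale. A deposited series table holds the authors' log2 values; each column has the same distribution, its centring is not stated, and it was used as an alternative. Control and outlier spots were left out, spots of a probe averaged, and log2 processed signals set relative to each array's 75th percentile. Of 50599 probes, 18468 were kept because some group had both of its arrays well above background. Accessions named 83.3% of the kept probes through RefSeq (GRCh38.p14, used for names and promoters). The fit was limma 3.58.1 in R 4.3.3 over all 6 arrays, 1 mean per group, with two-sided tests, Benjamini-Hochberg adjustment over kept probes and 3 residual plus 2.47 prior degrees of freedom. A gene stood for its kept probe with the highest mean signal. The fit was run on simulated data with the same spread in every group. The control arrays were further apart than those of the precursors, so that check does not cover the unequal spread here. Figures used matplotlib 3.10.9.

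The genes named were those called in any comparison, the 2 largest differences in each direction per comparison, *SCAMP3*, the paralogs of 6 families, and at most 3 called genes per direction from each further list; genes named beyond these, including those of the probe paragraphs, *GBF1* and *USO1*, were chosen after their values were seen. Members and lists were chosen with earlier results of these data known. Alternatives covered background correction, scaling, the filter, the arrays fitted, the replicate block, each array left out, a t-test and the mean over probes.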

Additional observations from a re-analysis of the deposited data

Results flagged for a closer look

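For 6 traffic genes both arrays of a precursor lay above both control arrays and both arrays of the other precursor below them, and the difference between the precursors was called. These were 14.6% of the 41 genes tested, and the same pattern held for 1336 of all 11974 genes (11.2%). The log2 difference, hsa-miR-205-5p against hsa-miR-214-3p, was 2.77 for *SCAMP3*, 1.72 for *SEC24C*, 1.56 for *ARF5* and 1.15 for *SEC24D*, where the control lay below hsa-miR-205-5p and above hsa-miR-214-3p. It was −2.18 for *TFG* and −1.38 for *KDELR1*, where the order was the reverse. For each of these genes, at most 1 of its 2 differences from the control was called. Groups of 2 arrays were too small for a search for single outlying arrays.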

How the results depend on the processing

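The 25 named calls met 17 alternatives each; of the 425 results 272 kept direction and call, 153 kept the direction without the call, and 0 reversed. Calls lower and higher were 8 and 2 with hsa-miR-205-5p against the control, 2 and 0 with hsa-miR-214-3p, and 8 and 5 between the precursors. With normexp background correction (offset 50) they were 5 and 0 with hsa-miR-205-5p, and 3 were higher between the precursors. Scaling to each array's median gave 0 higher with hsa-miR-205-5p and 12 lower and 3 higher between the precursors. With no filter on dim probes limma gave 0 and 0 with hsa-miR-205-5p (8 and 2 at an unadjusted p under 0.05 and 2-fold), 0 lower with hsa-miR-214-3p (3 at that p), and 4 and 3 between the precursors. With only the 4 arrays compared in the fit there were 3 and 0 with hsa-miR-205-5p and 0 lower with hsa-miR-214-3p. Replicate numbers are shared over the groups, but correlations of the replicate differences between groups were 0.109, 0.00819 and −0.0514; with the replicate block 4 were lower with hsa-miR-205-5p and 0 with hsa-miR-214-3p. The paper names a t-test in its general statistics and, for the arrays, only a p-value and a fold cut-off. A t-test gave 4 and 1 with hsa-miR-205-5p at an unadjusted p. After Benjamini-Hochberg adjustment it gave 0 and 0, 0 lower with hsa-miR-214-3p (3 unadjusted), and 4 lower between the precursors (9 unadjusted). Leave-one-out counts, with the lone array assumed to vary like the other groups, ran from 0 to 9 lower and 0 to 4 higher with hsa-miR-205-5p, 0 to 4 and 0 to 1 with hsa-miR-214-3p, and 0 to 9 and 1 to 5 between the precursors. Fewer arrays and fewer degrees of freedom enter those fits; for the other alternatives the cause was not tested. Blocking on slide or scan was not run, since every array shared 1 slide and 1 scan. Dim signal limits the tests: 4 of 45 genes were not well above background often enough.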

Other observations

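The unfolded protein response raises ER chaperones and many traffic genes when misfolded proteins collect in the ER. Of 22 genes of this response, all tested, 3 were called lower and 0 higher with hsa-miR-205-5p; with hsa-miR-214-3p limma called 0, with an unadjusted p under 0.05 for 5 (22.7%, against 24.2% of all genes). With hsa-miR-205-5p the shares were 13.6% lower and 0 higher, against 7.98% and 4.78% of all genes, and 12 of 22 had an unadjusted p under 0.05 (54.5%, against 39.5%). At an adjusted p under 0.05 alone 3 were lower and 4 higher; the 4 were *HSP90B1* (0.75), *SDF2L1* (0.92), *XBP1* (0.77) and *CREB3L2* (0.65). Between the precursors 3 were lower with hsa-miR-205-5p (13.6%, against 11.3% of all genes) and 0 higher (9.18% of all genes). *PDIA6*, a disulfide isomerase of the ER, read 2.35 and 2.16 with hsa-miR-205-5p, 4.59 and 4.55 with hsa-miR-214-3p, and 3.63 and 4.39 in the control, a fall of 1.76 (adjusted p = 0.0158). *DDIT3*, the stress transcription factor CHOP, and *EDEM1*, which helps to clear misfolded glycoproteins, were well above background on 1 of 2 hsa-miR-205-5p arrays. With the other array set to the lowest detectable signal or its own, whichever was higher, *DDIT3* was at least 2.48-fold lower than the control and *EDEM1* at least 1.73-fold, under the 2-fold limit. The main ER chaperone *HSPA5* was 1.42-fold above the control with hsa-miR-205-5p (adjusted p = 0.0833) and 1.24-fold with hsa-miR-214-3p (adjusted p = 0.322), without a call. *HSPA5* and the 4 genes above were chosen after their values were seen. The transcription factor *XBP1* was 1.71-fold above the control with hsa-miR-205-5p (adjusted p = 0.0400, under 2-fold). The median of the list was 0.36 with hsa-miR-205-5p and 0.32 with hsa-miR-214-3p, beside 0.08 and −0.01 over all genes.

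The ER stress response element was found in the promoters of 6 of these 22 genes (27.3%), namely *HSPA5*, *HSP90B1*, *XBP1*, *CALR*, *CANX* and *CRELD2*, and the TGACGTGG core in 0. In the traffic genes the shares were reversed, with the core in 10 of 38 and the longer element in 0.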
